A study of Mus musculus with 2 samples.

Results

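Chondrocytes, the cells that make and maintain cartilage, were picked out of 2 single-cell RNA libraries from amputated mouse digits and compared between FGF8 and control treatment. The cells were chosen by a rule on 8 cartilage genes: a barcode was taken when at least 1 transcript was found for 5 or more of Acan, Col9a1, Col9a2, Col9a3, Matn1, Snorc, Cnmd and Hapln1. The rule chose 240 cells out of 9967 that passed the filters on cell quality (a lower and an upper bound on detected genes, and under 15% of transcripts from mitochondrial genes), out of 10952 deposited barcodes. In the BSA library 79 of 3252 kept cells were chosen, a share of 2.43% (exact 95% interval 1.93 to 3.02). In the FGF8 library 161 of 6715 were chosen, a share of 2.40% (2.05 to 2.79), so the shares of the libraries differed by less than counting error.

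In both groups the middle phalanx (P2) of neonate mouse hindlimb digits was amputated at postnatal day 3 and a microcarrier bead was implanted into the wound at postnatal day 7. The bead carried FGF8 at 500 ng/µl in the FGF8 group and 0.1% BSA in the BSA group, and the tissue distal to the stump was dissociated 24 h later, at postnatal day 8. Each group was 1 library made from pooled cells of 20 digits of 5 mice, males and females together, and the FGF8 pool could include digits that would not have regenerated. With 1 library per group no test between conditions was possible, treatment and pool of animals cannot be told apart, and every interval below covers counting error alone.

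The 3′ library protocol used here tags each captured transcript with a unique molecular identifier (UMI), so counts are UMIs per gene and cell. Levels are given as UMIs per 1000000 UMIs of the chosen cells (CPM), and differences as the log2 ratio of FGF8 over BSA with an exact conditional 95% interval in brackets. The chosen cells held 2070735 UMIs in BSA and 3754948 in FGF8, with medians per cell of 23846 and 21599, above the medians of all kept cells (15377 and 12251). Among the chosen cells, 53 in BSA and 48 in FGF8 had Xist and no Y-linked UMI and are called female below. Y-linked UMIs without Xist were found in 15 BSA and 92 FGF8 cells, called male below. Sex was thus unevenly mixed between the libraries, and values within each sex are given where they part. Only 6 barcodes occurred in both libraries, and none belonged to a chosen cell in both.

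In cartilage, chondrocytes embed themselves in a matrix of type II, IX and XI collagen and aggrecan under the control of the transcription factors Sox9, Sox5 and Sox6. In growing digits they pass through resting, proliferating, prehypertrophic (Ihh, Pth1r) and hypertrophic (Col10a1) stages before bone replaces them, while cells at the joint surface follow another course marked by Gdf5, Erg and the lubricant gene Prg4. FGF signals act on cartilage through Fgfr1 to Fgfr3 and switch on their own inhibitors of the Sprouty, Spred and Dusp families and the Ets factors Etv4 and Etv5.

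Genes that the rule did not use matched the label. Col2a1, the main collagen of cartilage, stood at 25948 CPM in the chosen BSA cells against 21.9 CPM in the other kept cells of that library, and at 22834 against 18.9 CPM in FGF8. Sox9, the master regulator of cartilage, was detected in 84.8% of chosen BSA cells and 95.7% of chosen FGF8 cells. The other genes with the largest excess over the remaining cells were Ucma, Mia, Col11a2, Epyc, Scrg1, Meltf, Matn3, Foxa3, Scin, Susd5 and Crispld1. Ucma, a secreted protein of resting cartilage, was 817-fold and Mia, a secreted protein of chondrocytes, 505-fold higher in the chosen BSA cells than in the others. These folds describe how well the rule separated the cells and are not tests, since the same cells were chosen for cartilage genes.

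The number of rule genes per cell showed where the rule drew its line. All 8 genes were found in 39 BSA and 84 FGF8 cells, and 7 in 21 BSA and 63 FGF8 cells. Every cell with 7 of the 8 lacked Matn1, a matrix protein of non-articular cartilage, and no other rule gene. Just inside the rule, 7 BSA and 11 FGF8 cells had exactly 5 genes, with Col2a1 at 533 and 982 CPM. Another 12 of 79 BSA and 3 of 161 FGF8 cells had 6 genes, with Col2a1 at 917 and 2722 CPM. Just outside the rule, 46 BSA and 43 FGF8 cells had 4 genes, with Col2a1 at 140 and 167 CPM. Cells with 7 genes stood at 17405 (BSA) and 16316 CPM (FGF8) and cells with 8 at 36363 and 29533 CPM. Cells at the edge of the rule thus carried little cartilage collagen, and those with 6 genes were a larger part of the BSA cells. Col1a1, the collagen of bone and fibrous tissue, reached 10646 CPM in the BSA cells with 7 genes and 911 CPM in those with 8, against 1710 and 322 CPM in FGF8. It was higher still in BSA and FGF8 cells with 5 genes (17555 and 11102 CPM) and with 6 (13259 and 10057 CPM). Beyond the alternatives with other numbers of rule genes, the part of these edge cells in the ratios below was not tested.

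**Figure D1:**
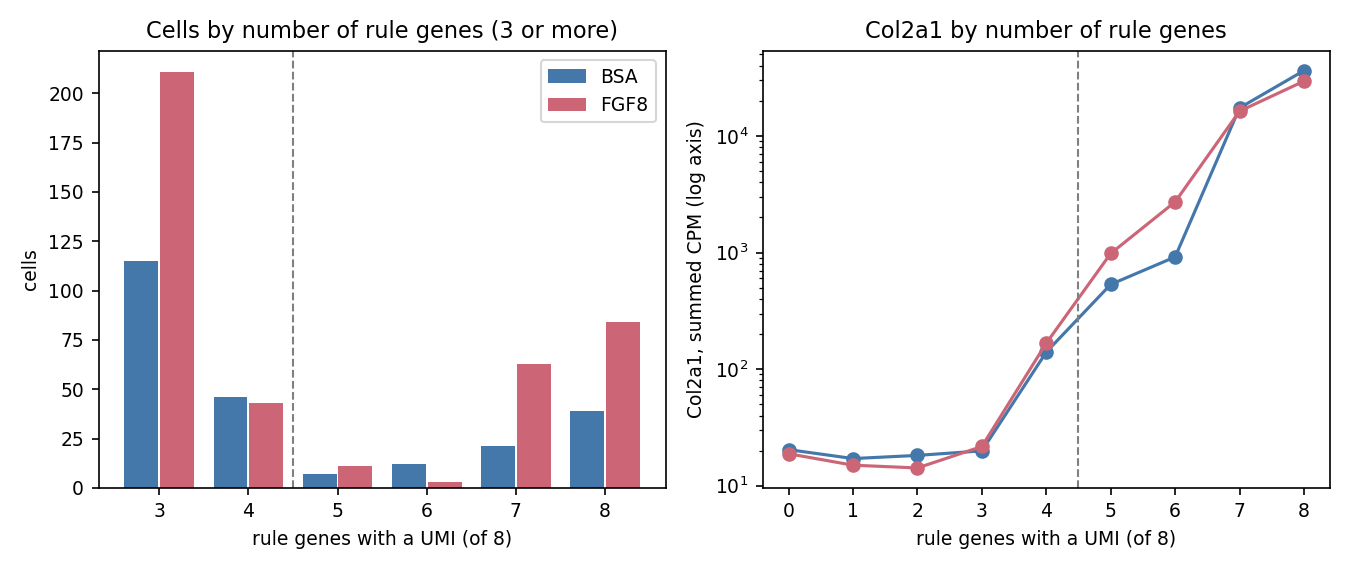
Left, number of kept cells (y axis) by the number of the 8 rule genes with a UMI (x axis, 3 or more shown), for BSA and FGF8; the dashed line marks the rule of 5. Right, summed Col2a1 level in CPM on a log axis by the same number: Col2a1 climbs from 140 (BSA) and 167 CPM (FGF8) in cells with 4 genes to 36363 and 29533 CPM in cells with 8.

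UMIs of genes used as markers of other cell types were present in some of the chosen cells. Macrophage, neutrophil and keratinocyte markers were higher in FGF8, and the summed levels of fibroblast, osteoblast, tenocyte and erythroid markers were higher in BSA. At least 3 of 8 macrophage markers were found in 1 BSA and 12 FGF8 cells, with a summed level of 9.66 CPM in BSA (per cell from 0 to 892) and 171 CPM in FGF8 (0 to 4450). C1qc and Adgre1 were at 0 in BSA. At least 3 of 6 keratinocyte markers were found in 1 BSA and 8 FGF8 cells (24.1 CPM, 0 to 466, and 211 CPM, 0 to 6923, with Krt15 at 0 in BSA). For 6 neutrophil markers the counts were 0 and 5 (5.80 CPM, 0 to 143, and 140 CPM, 0 to 6221). Retnlg, Csf3r, Ly6g and Mmp8 were at 0 in BSA and Ly6g at 0 in FGF8. Leaving out cells with 2 or more markers of any of these 3 lists kept 72 BSA and 118 FGF8 cells, and values from these are given beside results that they touch. Of the fibroblast markers, 0 of 7 measured genes had a ratio above 0, with a median of -1.30, and their summed level was 2563 CPM in BSA and 1694 CPM in FGF8. Only Dpp4 among them was at 0 in BSA. The 8 osteoblast markers summed to 6746 CPM in BSA (per cell up to 95973, Bglap2 at 0) and 2109 CPM in FGF8 (up to 43508), although Bglap, Dmp1 and Phex among them had ratios above 1. The 6 erythroid markers summed to 9973 CPM in BSA, with a median cell at 125 and the highest at 649492 CPM, and to 5730 CPM in FGF8, with a median cell at 151 and the highest at 787959 CPM. At least 3 of them were found in 14 of 79 BSA and 44 of 161 FGF8 cells, so the share of cells went the other way than the sum. The osteoblast sums hold Ibsp (896 and 247 CPM) and Alpl (219 and 113 CPM), which are treated below among genes of cartilage maturation. Tenocyte markers summed to 589 and 248 CPM. Of these, Fmod, counted below as a cartilage matrix gene, made up 515 and 197 CPM. Of the other lists, endothelial markers summed to 50.7 and 81.0, pericyte to 33.8 and 26.1, Schwann to 16.9 and 99.1 and mast cell markers to 9.18 and 8.52 CPM. The part of these cells in the ratios below was otherwise not tested.

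Over all 12910 genes with at least 10 UMIs in the chosen cells, the median log2 ratio was -0.05. As a background for the lists below, 45.3% of these genes had a ratio above 0, 9.98% a ratio above 1 and 6.53% a ratio below -1.

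Most genes of the cartilage matrix were slightly lower in FGF8, while 2 were well above BSA. Of 30 matrix genes outside the rule, 8 had a ratio above 0 and 22 below, with a median of -0.40 (order-statistic 95% interval of the median -0.68 to -0.17), 2 genes above 1 and 6 below -1. The bracketed ranges of list medians describe spread over genes, which are not independent replicates. Col2a1 itself was close in both libraries: the lower quartile, median and upper quartile over cells were 6172, 17949 and 37965 CPM in BSA and 9448, 19341 and 32382 CPM in FGF8. Its log2 ratio of -0.18 (-0.20 to -0.17) was small beside that spread. Acan, the aggrecan core protein and a rule gene, stood at 2858 CPM in BSA and 2510 CPM in FGF8. All 8 rule genes had ratios below 0, from -0.19 for Acan to -1.24 for Matn1, which are given as a description since these genes chose the cells.

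Chad, which encodes chondroadherin, a leucine-rich matrix protein that binds chondrocytes to type II collagen, was the more widely detected of the 2 matrix genes above 1. It stood at 244 CPM (506 UMIs) in BSA and 795 CPM (2984 UMIs) in FGF8, a log2 ratio of 1.70 (1.56 to 1.84). A UMI was found in 64.6% and 87.6% of cells, and in 45.7% and 73.5% once every cell was thinned to 5000 UMIs (70 BSA and 155 FGF8 cells, with 9 and 6 shallower cells left out). The median cell held 91.5 CPM in BSA and 595 CPM in FGF8. The ratio was above 0 in female-called (1.34) and male-called cells (2.63). Other cells held less Chad. Tenocyte-rule cells (kept cells outside the rule with at least 4 of 6 tenocyte markers) were at 23.3 CPM in BSA and 3.47 CPM in FGF8 (-2.75), with a UMI in 8 of 169 and 6 of 271 cells at the same thinning. In macrophage-rule cells (kept cells outside the rule with at least 4 of the 8 macrophage markers) a UMI was found in 0 of 277 BSA cells, with an exact upper bound of 1.32%, and 7 of 540 FGF8 cells. In all other kept cells together it was lower in FGF8 (4.05 and 1.14 CPM, log2 ratio -1.84).

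Cytl1, a small secreted protein of chondrocytes, was found in fewer cells. Its level was 57.0 CPM in BSA and 289 CPM in FGF8 (2.34, 2.07 to 2.63), and a UMI was found in 12.7% and 45.3% of cells. A few cells carried it, since the 8 highest of 79 BSA cells held 98.3% of its UMIs and 1 cell alone 61.9%, against 73.5% in the 17 highest of 161 FGF8 cells.

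The 6 matrix genes below -1 were Ogn, Smpd3, Fmod, Epyc, Matn3 and Prelp. Ogn (osteoglycin) was at 138 CPM in BSA and 30.4 CPM in FGF8 (-2.19, -2.51 to -1.87). Its ratio was -1.02 among cells with all 8 rule genes and -0.17 (-1.21 to 0.92) among those with 3 or more UMIs of Col10a1 and Ihh, against -2.35 in the others. Fmod (fibromodulin) was at 515 and 197 CPM (-1.39) and Prelp at 227 and 111 CPM (-1.04). Epyc (epiphycan) followed with 909 and 755 UMIs (-1.13) and Matn3, a cartilage matrilin, at 1169 and 564 CPM (-1.05). Smpd3, a sphingomyelinase of mineralizing cartilage, was at 210 and 49.0 CPM (-2.10), with -3.41 in female-called cells and 0.19 in male-called ones. Where cells lacked a Matn1 UMI, the median of the matrix list was 0.02 and the ratio of Epyc was 0.85. Ogn was also found in tenocyte-rule cells, at 462 and 272 CPM. Fmod was at 430 and 309 CPM there, which is a description only, since it is 1 of the 6 markers that chose those cells.

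**Figure D2:**
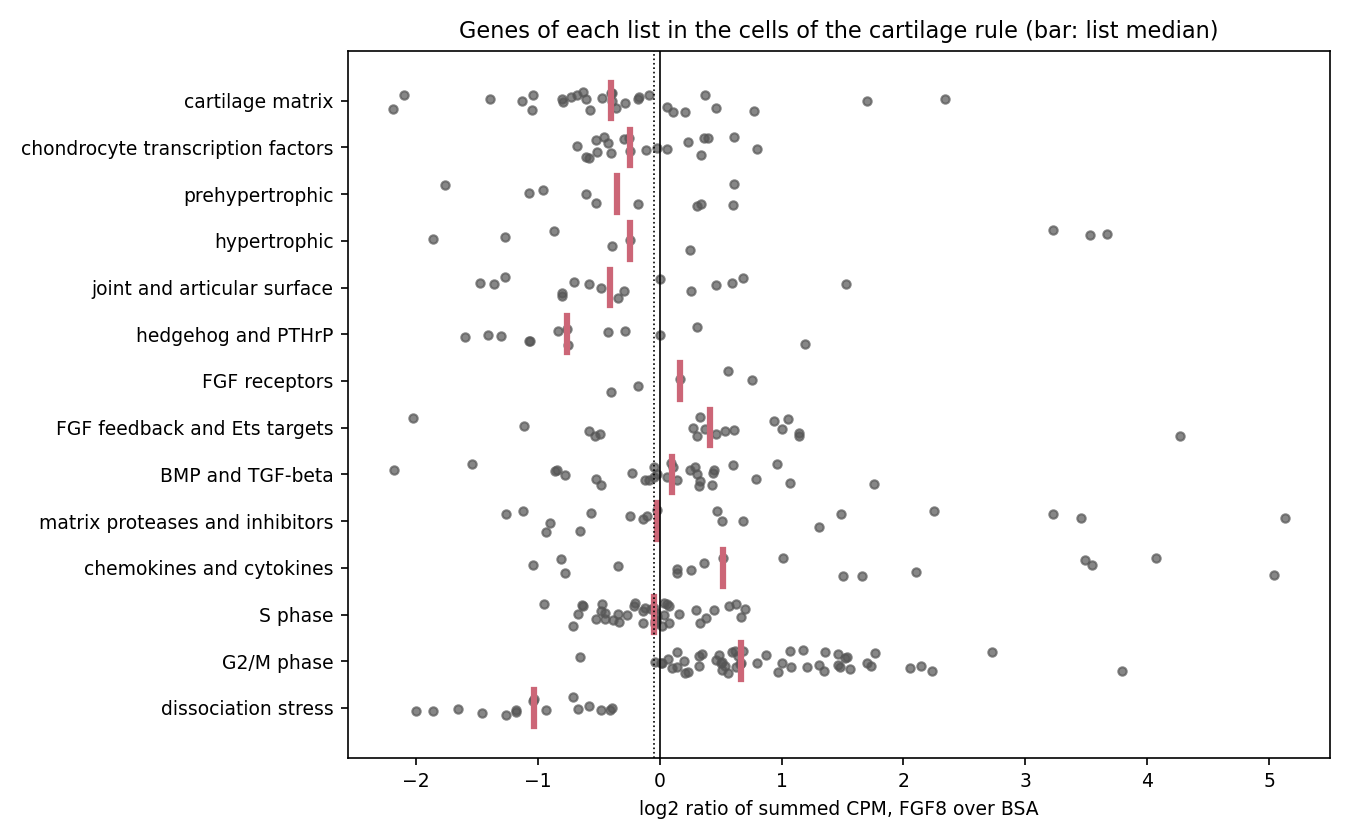
Each point is the log2 ratio of summed CPM, FGF8 over BSA (x axis), of 1 gene with at least 10 UMIs in the chosen cells, by gene list (y axis); red bars are list medians, the solid line is 0 and the dotted line the all-gene median of -0.05. The matrix list centres at -0.40 and the dissociation stress list at -1.03, while single genes of the hypertrophic, protease and chemokine lists lie above 3.

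The regulators of cartilage differed little between the libraries. Of 20 transcription factors, 7 had a ratio above 0 and none passed 1 in either direction, with a median of -0.24 (-0.46 to 0.23). Sox9 stood at 659 CPM in BSA and 868 CPM in FGF8 (0.40, 0.31 to 0.49), with 389 and 630 CPM in the median cell. Its ratio was 0.58 for female-called against 0.04 for male-called cells. Its partner Sox5 was at 362 and 632 CPM (0.80, 0.69 to 0.92) and was higher in both sexes (0.99 and 0.80), while Sox6 was at 302 and 229 CPM (-0.40). Runx2, which drives chondrocyte maturation, was at 307 and 388 CPM (0.34, or 0.81 and -0.43 by sex, here and below with female-called cells before male-called ones) and its relative Runx3 at 46.4 and 70.6 CPM (0.61).

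Spp1 showed the largest gain in UMIs of any listed gene. It encodes osteopontin, a phosphorylated matrix protein of bone, late hypertrophic cartilage and injured tissue. In BSA it was at 2573 CPM, with a median cell at 0, an upper quartile of 539 CPM and a single cell holding 49.1% of its UMIs. In FGF8 it was at 32726 CPM, with a lower quartile of 956, a median of 8661 and an upper quartile of 47907 CPM. The log2 ratio was 3.67 (3.63 to 3.71), or 5.91 for female-called against 1.23 for male-called cells. A UMI was found in 44.3% of BSA and 92.5% of FGF8 cells, and in 35.7% and 87.7% at 5000 UMIs per cell. Without the cells carrying 2 or more macrophage, neutrophil or keratinocyte markers the ratio was 3.54.

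Spp1 UMIs were also found in cells that should hold little of it. In Schwann-rule cells (4 or more of 6 Schwann markers) Spp1 was at 4.97 CPM in BSA and 149 CPM in FGF8, and 1.89% and 40.2% of cells had a UMI at 5000 UMIs per cell (median depths before thinning 16761 and 12221 UMIs). In macrophage-rule cells, which can express Spp1, it was at 141 and 844 CPM. The level in the chosen FGF8 cells lay far above both. In osteoblast-rule cells (4 or more of 8 osteoblast markers) it was at 15439 and 38974 CPM, so the level in the chosen FGF8 cells lay between these values.

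The other genes of hypertrophy were divided. Of 9 measured genes of the hypertrophic list, 4 had ratios above 0, 3 of them above 1, and the median was -0.24 (-1.27 to 3.53). Besides Spp1, those above 1 were Dmp1, a matrix protein of mineralized tissue, with 2 and 42 UMIs (3.53, 1.59 to 6.63), and the gelatinase Mmp9, with 1 and 17 UMIs (3.23, 0.55 to 8.61). Col10a1, the collagen of hypertrophic chondrocytes, was at 1536 CPM in BSA and 636 CPM in FGF8 (-1.27, -1.35 to -1.19), with a UMI in 24.1% and 26.1% of cells. Its UMIs sat in few cells, with 96.8% in the 8 highest BSA cells and 96.4% in the 17 highest FGF8 cells. By sex the ratio was -3.32 for female-called against 8.28 for male-called cells, so no common direction was seen. Ibsp, bone sialoprotein, was at 896 and 247 CPM (-1.86), but 1 BSA cell held 87.5% of its BSA UMIs, and the ratio was -0.85 and 3.0 by sex. Mmp13, the collagenase of late cartilage, was at 382 and 324 CPM (-0.24), with 80.9% of BSA UMIs in 1 cell, while cells with a UMI were 8.86% in BSA and 34.2% in FGF8. At 5000 UMIs per cell these shares were 4.29% (3 of 70) and 26.5% (41 of 155), against 1.08% and 3.89% in macrophage-rule cells. In female-called cells the Mmp13 ratio was 3.62 and in male-called cells -3.03.

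Ihh and the hedgehog pathway gave a mixed picture. Indian hedgehog is made by prehypertrophic cells and holds back maturation through parathyroid hormone-related protein (Pthlh) and its receptor Pth1r. Ihh was at 153 CPM in BSA and 189 CPM in FGF8 (0.31, 0.11 to 0.50), -0.74 for female-called against 1.17 for male-called cells. It was -0.54 among cells with all 8 rule genes, while 26 FGF8 cells and no BSA cell had an Ihh UMI without a Matn1 UMI. Of 13 genes of the pathway 2 had ratios above 0, and the median was -0.76. The hedgehog receptor and target Ptch1 was at 136 and 80.2 CPM (-0.76, and below 0 in both sexes). The hedgehog co-receptors Boc (56.5 and 22.9 CPM, -1.30), Cdon (47.8 and 28.5 CPM, -0.75) and Gas1 (120 and 45.0 CPM, -1.41) were also lower in both sexes. Among cells with all 8 rule genes Gas1 stood at 0.56. Pth1r was at 355 and 169 CPM (-1.07), with opposite signs in the sexes (-1.92 and 1.08), and Panx3, a channel of prehypertrophic cells, at 186 and 55.1 CPM (-1.76, or -3.12 and 0.35 by sex).

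To see whether the FGF8 gains lay with maturing cells, the chosen cells were split by their UMIs of Col10a1 and Ihh, a split made after the values had been seen. At least 3 UMIs of these genes together were found in 17 of 79 BSA cells (21.5%, 13.1 to 32.2) and 51 of 161 FGF8 cells (31.7%, 24.6 to 39.5). The intervals of these shares overlapped. These cells were deeper than the rest, with median depths of 38593 and 27376 UMIs against 22392 and 20397. Matn1 was found in 17 of the 17 in BSA and 32 of the 51 in FGF8. The make-up of these cells also differed by the 2 genes that chose them. Col10a1 was found in 82.4% of them in BSA and 60.8% in FGF8 (4641 and 1667 CPM), and Ihh in 70.6% and 78.4% (456 and 480 CPM). Ratios among Col10a1/Ihh cells thus do not compare cells of 1 stage, and the part of this difference in them was not tested. Spp1 was higher in FGF8 on both sides of the split, at 2418 and 43249 CPM among Col10a1/Ihh cells (4.16) and at 2650 and 26291 CPM among the others (3.31). Col2a1 was lower in FGF8 among Col10a1/Ihh cells (40644 and 25724 CPM, -0.66) and not among the others (18698 and 21067 CPM, 0.17). Bmp6, a BMP ligand of prehypertrophic cartilage, was at 1365 and 1295 CPM in Col10a1/Ihh cells (-0.08) and at 97.4 and 466 CPM in the others (2.26). Alpl, the alkaline phosphatase of mineralization, was at 599 and 257 CPM in Col10a1/Ihh cells (-1.22).

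**Figure D3:**
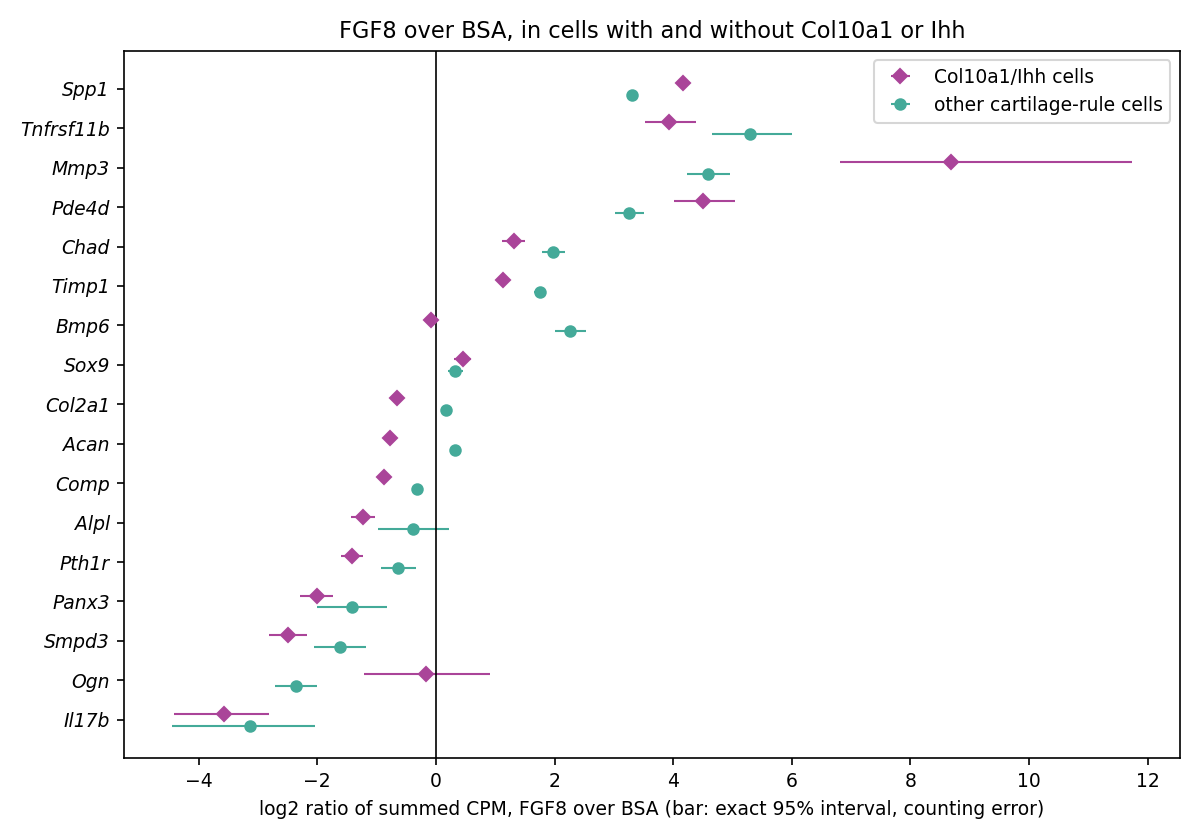
Log2 ratio of summed CPM, FGF8 over BSA (x axis), for 17 genes in cells with at least 3 UMIs of Col10a1 and Ihh together (diamonds, 17 BSA and 51 FGF8 cells) and in the other chosen cells (circles); bars are exact 95% intervals of counting error. Spp1, Tnfrsf11b, Mmp3, Pde4d, Chad and Timp1 lie above 0 in both, Pth1r, Panx3, Smpd3 and Il17b below 0 in both, and the ratios of Col2a1 and Bmp6 differ between them. Acan is a rule gene and is shown as a description.

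Matrix-degrading enzymes and their inhibitor were among the genes higher in FGF8. Mmp3, stromelysin 1, cleaves aggrecan and activates other proteases. It was at 33.8 CPM in BSA, where 63 of its 70 UMIs sat in 1 cell. In FGF8 Mmp3 was at 1184 CPM (5.13, 4.79 to 5.49), or 8.19 for female-called against 2.70 for male-called cells. A UMI was found in 6.33% and 62.7% of cells, and in 2.86% and 44.5% at 5000 UMIs per cell, while macrophage-rule cells gave 0% and 14.8%. The FGF8 quartiles over cells were 0, 77.2 and 1036 CPM. Tenocyte-rule cells showed a like difference, at 31.3 and 821 CPM (4.71). Mmp10, a close relative, was at 14.0 CPM in BSA, with all 29 UMIs in 1 cell, and at 154 CPM in FGF8 (3.46, or 7.29 for female-called against 0.32 for male-called cells). Timp1, the inhibitor of these enzymes, was at 1252 and 3521 CPM (1.49, 1.43 to 1.55), with 439 and 2244 CPM in the median cell. It was higher in FGF8 in both sexes (1.81 and 1.39). Timp1 was also higher over all other kept cells (344 and 1561 CPM, 2.18). Its ratio was 2.37 in tenocyte-rule, 1.82 in macrophage-rule, 1.24 in Schwann-rule and 0.78 in osteoblast-rule cells. Mmp16, a membrane-bound metalloprotease, was at 52.2 and 130 CPM (1.31), whereas Mmp2 was at 213 and 98.3 CPM (-1.12), Ctsk at 133 and 55.4 CPM (-1.26) and Timp2 at 345 and 185 CPM (-0.90). Over 19 genes of the list the median was -0.02, with 9 ratios above 0, 6 of them above 1.

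The stretches ahead of the start sites of Spp1 and Mmp3 are shown because these genes had the highest ratios of the hypertrophic and protease lists. They are RefSeq windows of 250 bases on GRCm38.p6, plus strand, and capitals mark matches to the AP-1 motif TGANTCA or the Ets motif CCGGAAG on either strand. The motifs do not overlap. Spp1 lies at chr5:104434861-104435110 and has an Ets match, and Mmp3 lies at chr9:7445572-7445821 and has an AP-1 match.
Spp1: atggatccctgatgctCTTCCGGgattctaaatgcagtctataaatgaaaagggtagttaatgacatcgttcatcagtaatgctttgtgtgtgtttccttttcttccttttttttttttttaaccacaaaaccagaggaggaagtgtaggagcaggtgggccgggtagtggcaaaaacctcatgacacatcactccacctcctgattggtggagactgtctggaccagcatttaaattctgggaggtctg
Mmp3: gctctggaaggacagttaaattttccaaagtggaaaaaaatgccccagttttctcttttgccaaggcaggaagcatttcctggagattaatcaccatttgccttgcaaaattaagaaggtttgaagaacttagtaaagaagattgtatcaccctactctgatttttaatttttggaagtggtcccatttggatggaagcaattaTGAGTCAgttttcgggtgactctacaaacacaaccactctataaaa
A second Spp1 window held neither motif. Of 32851 windows of this length, 6.75% held the AP-1 motif and 6.91% the Ets motif, so a match describes the sequence and is no sign of binding.

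Tnfrsf11b, chosen after its values were seen, was at a higher level in the chosen FGF8 cells than in the other sets of cells. It encodes osteoprotegerin, the decoy receptor that blocks RANKL and so restrains osteoclasts. It was at 32.8 CPM (68 UMIs) in BSA and 756 CPM (2837 UMIs) in FGF8 (4.52, 4.18 to 4.89), and the ratio was 5.04 without cells that carried macrophage, neutrophil or keratinocyte markers. A UMI was found in 27.8% and 68.9% of cells, and in 10.0% (4.12 to 19.5) and 56.1% (47.9 to 64.1) at 5000 UMIs per cell. The FGF8 quartiles over cells were 0, 188 and 895 CPM, with the highest cell at 7074 CPM, while the upper quartile in BSA was 21.0 CPM. In all other kept cells together the gene was at 25.3 and 24.7 CPM (-0.03), in tenocyte-rule cells at 12.3 and 10.5 CPM (-0.22) and in macrophage-rule cells at 4.10 and 3.29 CPM (-0.32). Osteoblast-rule cells had a ratio above 0, at 6.87 and 34.2 CPM (2.31), and Schwann-rule cells had 0 and 13 UMIs. Of 161 chosen FGF8 cells, 107 had UMIs of both Spp1 and Tnfrsf11b, 42 of Spp1 alone, 4 of Tnfrsf11b alone and 8 of neither. Since 92.5% of these cells had an Spp1 UMI and 68.9% a Tnfrsf11b UMI, wide overlap would arise without a link, and none is read.

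**Figure D4:**
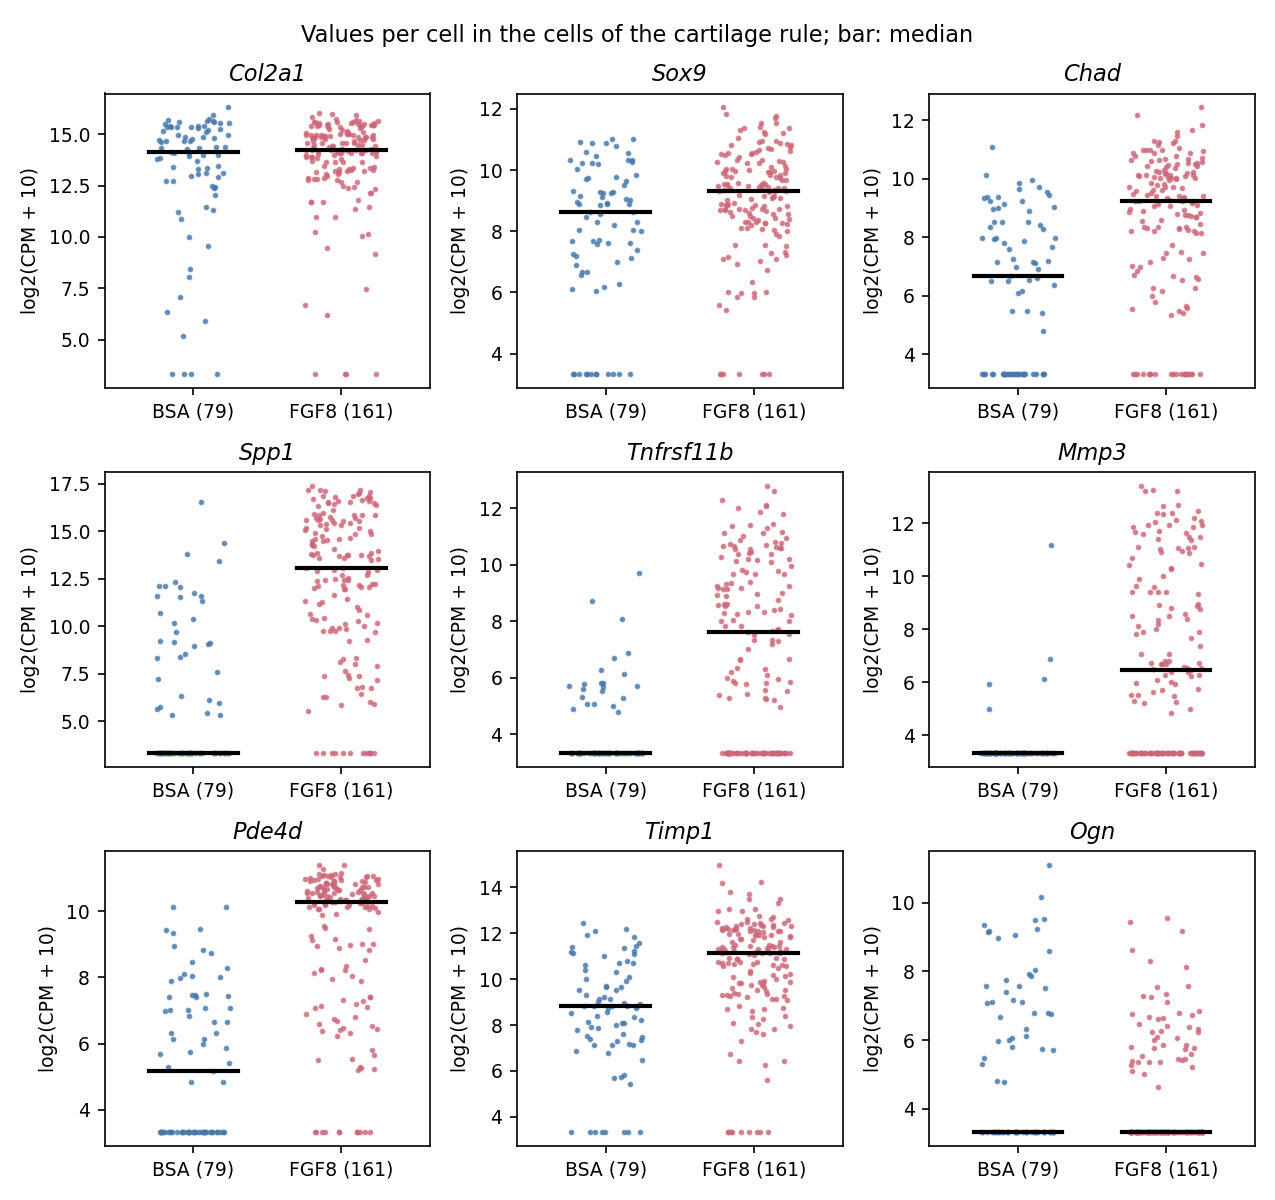
Each point is 1 chosen cell, with log2(CPM + 10) on the y axis for 9 genes; BSA has 79 cells and FGF8 161, bars are medians and points at the bottom are cells without a UMI. Col2a1 overlaps almost fully, whereas the FGF8 medians of Spp1 (8661 CPM), Tnfrsf11b (188 CPM), Mmp3 (77.2 CPM), Pde4d (1227 CPM), Timp1 (2244 CPM) and Chad (595 CPM) lie above the BSA medians (0, 0, 0, 26.3, 439 and 91.5 CPM).

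Pde4d, a phosphodiesterase that breaks down cyclic AMP and also chosen after its values were seen, behaved differently. It was at 90.3 and 1075 CPM in the chosen cells (3.57), but it was also higher in the FGF8 library in tenocyte-rule (316 and 751 CPM), osteoblast-rule (237 and 924 CPM), macrophage-rule (176 and 736 CPM) and Schwann-rule cells (228 and 745 CPM). The FGF8 levels of these sets lay between 736 and 1075 CPM, and the chosen BSA cells had the lowest BSA level. Stk32b, a kinase gene picked in the same way, was by contrast at 6.28 and 70.3 CPM (3.49) in the chosen cells and below 1 CPM in both libraries among the other kept cells.

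**Figure D5:**
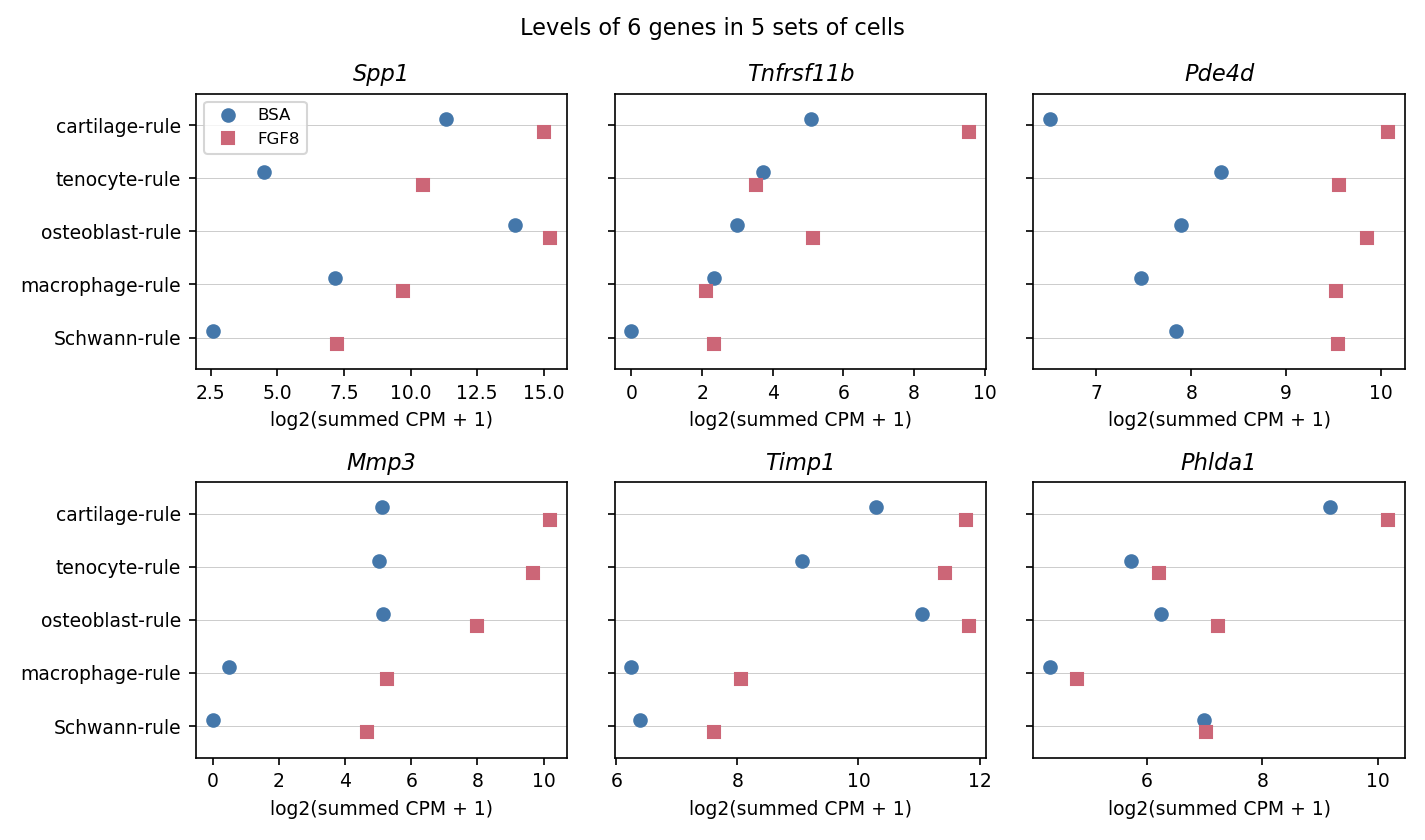
Summed level of 6 genes, log2(CPM + 1) on the x axis, in the chosen cells and in 4 other sets of kept cells (y axis) of the BSA (circles) and FGF8 (squares) libraries, without error bars. Tnfrsf11b parts the libraries in the chosen cells (32.8 and 756 CPM) and overlaps in tenocyte-rule cells (12.3 and 10.5 CPM). Pde4d, Spp1, Mmp3 and Timp1 are higher in FGF8 in all 5 sets.

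FGF feedback genes and Ets targets were more often higher than lower in FGF8, with small counts for several. Of 18 measured genes 13 had ratios above 0, 5 of them above 1, and the median was 0.41 (-0.49 to 1.00), or 0.59 for female-called against -0.02 for male-called cells. Phlda1, an early target of growth factor signals, was at 574 and 1150 CPM (1.00, 0.91 to 1.10), with 229 and 713 CPM in the median cell. Ier3, an immediate early gene, was at 1428 and 2734 CPM (0.94). Both ratios were above 0 in female-called cells (1.39 and 1.41) and near 0 in male-called ones (-0.02 and -0.05). The Ets factor Etv5 was at 13.5 CPM (28 UMIs) in BSA and 29.8 CPM (112 UMIs) in FGF8 (1.14, 0.53 to 1.79), and was higher in both sexes. Etv4 had 1 UMI in BSA and 35 in FGF8 (4.27, 1.70 to 9.61), and the ratio was 2.06 without cells carrying macrophage, neutrophil or keratinocyte markers. Over all other kept cells together the ratios were 1.44 for Etv4, 1.04 for Ier3, 0.48 for Phlda1 and 0.18 for Etv5. Among the inhibitors, Spry4 was at 8.21 and 17.0 CPM (1.05, or 1.92 and -0.34 by sex), with 23.4% of its FGF8 UMIs in 1 cell, Dusp6 at 14.5 and 22.1 CPM (0.61, or 1.38 and -0.60 by sex), Spred1 at 172 and 238 CPM (0.46) and Spry2 at 76.3 and 98.3 CPM (0.37). Spry1 went the other way, at 14.0 CPM (29 UMIs) and 3.46 CPM (13 UMIs, -2.02), and so did Myc, at 67.6 and 31.4 CPM (-1.11).

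The receptors differed less. Fgfr1 was at 176 and 259 CPM (0.56, 0.38 to 0.74), Fgfr2 at 154 and 172 CPM (0.17, -0.03 to 0.36) and Fgfr3, which slows the growth of cartilage, at 70.0 and 61.8 CPM (-0.18, or -0.66 and 0.43 by sex). The decoy receptor Fgfrl1 was at 87.4 and 148 CPM (0.76, 0.51 to 1.01). Of the ligands, Fgf2 was at 42.5 and 82.3 CPM (0.95) and Fgf1 had 4 and 42 UMIs (2.53, 1.07 to 4.47).

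The study asked whether FGF8 brings about joint tissue at the amputation wound, and it drew on histology, immunostaining, lineage tracing and qRT-PCR as well. In the RNA of the chosen cells at 24 h, the joint genes did not differ in a common direction, which does not bear on that other evidence. In its own clusters the paper reports Gdf5 as enriched in FGF8-treated chondrocytes. Of 16 measured genes of the joint and articular surface list 6 had ratios above 0, 1 of them above 1, and the median was -0.41 (-0.80 to 0.46). Gdf5, the growth factor of the joint interzone, had 12 UMIs in BSA and 63 in FGF8 (5.80 and 16.8 CPM, 1.53, 0.63 to 2.56). A UMI was found in 8.86% and 19.3% of cells, but in 4.29% (3 of 70) and 5.16% (8 of 155) at 5000 UMIs per cell, and the ratio was 2.71 for female-called against -0.35 for male-called cells. After thinning too few Gdf5 UMIs were left to show or exclude a difference. No Gdf5 UMI was found in macrophage-rule, osteoblast-rule or Schwann-rule cells, while tenocyte-rule cells had 7 and 9 UMIs and all other kept cells 52 and 60 (-0.72).

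Prg4, which encodes the joint lubricant lubricin, was at 234 CPM in BSA and 281 CPM in FGF8 (0.26, 0.11 to 0.42), -0.21 without cells carrying markers of the 3 other types, and -1.73 and 0.40 in female-called and male-called cells. It was 2.85 once cells with 4 rule genes were taken in, and -1.06 and 0.52 in Col10a1/Ihh cells and the others, so no common direction was seen. Cells with a UMI were 15.2% and 54.7%, and 14.3% (7.07 to 24.7) and 28.4% (21.4 to 36.2) at 5000 UMIs per cell. At that depth Schwann-rule cells of the FGF8 library gave 23.8% (18.3 to 30.1) and macrophage-rule cells 19.6% (16.4 to 23.2), and the Schwann-rule interval overlapped that of the chosen cells, so no change is read from the shares. In BSA the same sets gave 1.89% (0.229 to 6.65) and 1.81% (0.589 to 4.16), below the chosen cells. A few chosen cells carried most Prg4, with 94.2% of UMIs in the 8 highest BSA cells and 89.8% in the 17 highest FGF8 cells, up to 8411 and 8994 CPM. Tenocyte-rule cells held 434 CPM in BSA and 2517 CPM in FGF8 (2.53), and all other kept cells together 176 and 1447 CPM (3.04). Cd44, the hyaluronan receptor, was at 166 and 250 CPM (0.59), and Cux1, a homeobox factor of the joint interzone, at 87.4 and 140 CPM (0.68, or 0.14 without the cells carrying other markers and -0.40 in Col10a1/Ihh cells). Tnc, tenascin C, was at 422 and 581 CPM (0.46). Has2, a hyaluronan synthase, was at 140 and 140 CPM (0.00, -0.21 to 0.21), Erg, a factor of articular chondrocytes, at 81.6 and 66.6 CPM (-0.29), and Wnt4 at 65.2 and 51.7 CPM (-0.34). The 3 genes of the list below -1 were Vit at 50.2 and 20.8 CPM (-1.27), Cilp2 at 30.9 and 11.2 CPM (-1.47) and Abi3bp at 45.9 and 17.8 CPM (-1.36, or 0.89 among cells with all 8 rule genes).

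Of 30 BMP and TGF-beta genes 17 had ratios above 0, 2 of them above 1, with a median of 0.10. Inhba, a subunit of activin, was at 126 and 426 CPM (1.76, 1.57 to 1.95) and higher in both sexes (1.92 and 1.12). Bmp7 was at 15.5 and 32.5 CPM (1.07) and Bmp2 at 257 and 314 CPM (0.29), while the antagonists Nog (38.2 and 21.3 CPM, -0.84) and Chrdl1 (47.3 and 16.2 CPM, -1.54) had opposite signs in the sexes.

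Chemokines and cytokines had a median ratio of 0.52 (0.14 to 2.10), with 13 of 17 genes above 0 and 8 above 1. The median was 0.16 for female-called against 0.67 for male-called cells. Il11, an interleukin of the IL-6 family, was at 74.9 and 151 CPM (1.01, 0.75 to 1.28), with UMIs in 19.0% and 46.0% of cells, and its receptor Il11ra1 at 34.8 and 7.72 CPM (-2.17). The prostaglandin synthases Ptgs2 (276 and 397 CPM, 0.52) and Ptges (30 and 154 UMIs) were higher in both sexes. By the split on Col10a1 and Ihh, Ptgs2 was at 615 and 302 CPM (-1.03) in Col10a1/Ihh cells and at 109 and 455 CPM (2.06) in the others. The neutrophil attractants Cxcl2 (15 and 319 UMIs, 3.55) and Cxcl5 (2 and 119 UMIs, 5.04) were also higher, and Cxcl5 was at 0.903 and 52.9 CPM in Schwann-rule cells, above its 31.7 CPM in the chosen FGF8 cells, so no expression is read from it. Cxcl1 was at 428 and 513 CPM (0.26), with 0.12 and -0.31 by sex.

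Cell cycle genes did not give a common answer. The S phase list had a median of -0.05 (-0.21 to 0.02) over 42 genes, -0.56 over female-called and 0.76 over male-called cells. In the G2/M list 51 of 53 genes had ratios above 0 and the median was 0.67 (0.51 to 1.18), but it was 0.06 in female-called cells, 1.24 in male-called cells and 0.05 in cells with all 8 rule genes. The UMIs of this list were concentrated, with 54.2% in the 17 highest FGF8 cells and 39.2% in the 8 highest BSA cells. Top2a, a topoisomerase of dividing cells, had a ratio of 0.56 over all chosen cells and -0.72 among cells with all 8 rule genes, and was found in 12.9% of BSA and 12.3% of FGF8 cells at 5000 UMIs per cell.

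Genes of the stress response to tissue dissociation were lower in FGF8 over the chosen cells as a whole. All 16 measured genes had ratios below 0, 9 of them below -1, with a median of -1.03. The heat shock gene Hspa1a was at 447 and 162 CPM (-1.46) and Hspa1b at 268 and 67.1 CPM, and the immediate early gene Fos at 906 and 442 CPM (-1.04). Among Col10a1/Ihh cells Fos was instead higher, at 39.5 and 211 CPM (2.42, 1.85 to 3.05), as was Egr1, another immediate early gene, at 143 and 234 CPM (0.71, 0.38 to 1.05), while in the other chosen cells Fos was at 1334 and 583 CPM and Egr1 at 414 and 206 CPM. Outside the chosen cells Hspa1a had a ratio of 0.22 over all other kept cells, 0.33 in tenocyte-rule, -0.37 in macrophage-rule and -0.82 in osteoblast-rule cells. Fos had ratios of 0.02, -0.02, -0.39 and 0.10 in the same sets. The part of this response in the other ratios was not tested.

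Among genes whose UMIs summed to 100 or more and whose ratios had 1 sign in both sexes, the highest ratios were those of Pf4, Ctss, Fcer1g, Tinagl1, Trf, Il1b, Lyz2, Hs3st1, Mmp3 and Gm49171. Several of these are genes of macrophages and other myeloid cells: Lyz2 (lysozyme) had 6 UMIs in BSA and 517 in FGF8 (5.57), and 0.85 without the cells carrying macrophage, neutrophil or keratinocyte markers, while Pf4 went from 7.25 to 3.56 and Ctss from 6.92 to 1.48. Tinagl1, a secreted basement membrane protein, kept 6.26 of its 6.30 and Hs3st1, a heparan sulfate sulfotransferase, 5.26 of its 5.27. By sex the ratios were 6.05 and 1.79 for Tinagl1 and 4.98 and 2.24 for Hs3st1. The male-called values rest on the floor, since male-called BSA cells held no UMI of either gene. Tinagl1 was at 0.966 CPM (2 UMIs) in BSA and 75.9 CPM (285 UMIs) in FGF8, in 28.0% of FGF8 cells.

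The lowest ratios were those of Il17b, Angptl1, Rrad, Ogn, Pde10a, Il11ra1, Itgbl1, Fam13c, Ecm2 and Ptx3. Among cells with all 8 rule genes the ratio was 4.11 for Itgbl1 and -0.17 for Ecm2, against -2.16 and -2.09 over all chosen cells. Il17b, a cytokine gene expressed by chondrocytes, was at 67.1 CPM (139 UMIs) in BSA, with 46.0% of UMIs in 1 cell, and at 6.66 CPM (25 UMIs) in FGF8 (-3.33, -4.01 to -2.71). It was also lower in Schwann-rule cells, at 37.9 and 2.82 CPM (-3.75). Angptl1, a secreted angiopoietin-like protein, was at 51.7 and 8.26 CPM (-2.65), with UMIs in 34.2% and 14.9% of cells, and was lower in tenocyte-rule cells as well (482 and 278 CPM, -0.80). Ptx3, a pentraxin, was at 51.2 and 12.8 CPM.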

How the data were processed

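Single-cell RNA-seq was done on 1 library per group (BSA, FGF8) with a 3′ kit. The authors deposited filtered matrices of raw UMI counts per gene and cell, made with Cell Ranger 9.0.0 and the GRCm39 reference that goes with it. The submitters' processing notes also name mm10. Group labels came from the sample labels.

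From these counts, cells were filtered on detected genes and on the share of mitochondrial UMIs, and cells with 5 or more of 8 cartilage genes were taken (Python 3.11.15, numpy 2.4.6, scipy 1.17.1, pandas 2.3.3, matplotlib 3.10.9). UMIs were summed per library over these cells and divided by their total (CPM). Ratios carry exact conditional 95% intervals and shares exact binomial (Clopper-Pearson) ones, both of counting error only. A gene at 0 in 1 library was set to a floor of 3 counts. Genes with 10 or more UMIs entered the lists. Library depth was 67739460 (BSA) and 124889213 UMIs (FGF8). No test between conditions was run. The scripts were tested on simulated data.

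No doublet caller was run, and cells with markers of other types were left out in alternatives instead. Genes named beyond the lists were the 12 with the largest fold over other kept cells, found in at least 50% of the cells, and the 10 highest and 10 lowest ratios among genes with 100 or more UMIs, found in at least 10% of cells of the higher library and of 1 sign in both sexes. Tnfrsf11b, Pde4d, Stk32b, the split on Col10a1 and Ihh and the Schwann-rule cells were chosen after values were seen. The members and lists were chosen with earlier results of these data known. Alternatives were other numbers of rule genes, a rule on the share of UMIs, stricter cell filters, other count minimums, thinning to 5000 UMIs, each sex alone and cells without markers of other types. The sets with all 8 genes, without Matn1 and without macrophage, neutrophil or keratinocyte markers were added after seeing the data. Promoter windows came from a RefSeq table on GRCm38.p6, and no coordinates were moved between builds.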

Additional observations from a re-analysis of the deposited data

Results flagged for a closer look

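The results given here had opposite signs in the sexes. Genes are named where both ratios were beyond 1 in size and each sex held 100 or more UMIs, summed over both libraries. A single library could thus hold few UMIs of a gene within a sex. The difference between the sexes was not tested, and only 15 BSA cells were male-called. The S phase list had median log2 ratios of -0.56 (female-called) and 0.76 (male-called). Pth1r, the receptor for parathyroid hormone-related protein, had ratios of -1.92 and 1.08. Col10a1, the collagen of hypertrophic cells, had ratios of -3.32 and 8.28, and the alkaline phosphatase Alpl had -2.65 and 2.10. Mmp13, a collagenase, went the other way, at 3.62 and -3.03. A single BSA cell held 80.9% of the Mmp13 UMIs in BSA, and 8 BSA cells held 96.8% of those of Col10a1.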

How the results depend on the processing

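No paired analysis was possible because each group has 1 library, and for the same reason no replicate could be left out. Over shares, list medians and counts, 128 of 162 alternative values stayed within the interval of the reported value (counts within 1.5 times), 33 moved beyond it and 1 reversed. Over 109 named genes, 772 of 1398 stayed, 609 moved and 17 reversed. Reversed here means a change of sign of a list median whose interval excluded 0, or of a gene whose ratio was beyond 1 in size. Counting every change of sign, 12 of 120 values of list medians (6 lists) and 73 of 1398 values of genes (35 genes) changed sign. The share of chosen cells was 3.84% (BSA) and 3.04% (FGF8) with 4 rule genes, 3.63% and 2.93% by share of UMIs, 1.85% and 1.53% without cells bearing doublet markers, and 1.20% and 1.25% with all 8 genes. The FGF8 share was 2.88% in thinned cells and 1.76% without cells carrying macrophage, neutrophil or keratinocyte markers. The matrix median was -0.84 in female-called cells, -0.05 in male-called cells and 0.02 without a Matn1 UMI, where the joint median was -0.82.

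The S phase median was 0.22 with 4 rule genes, 0.18 with 6, -0.25 with 8, -0.31 with the stricter cell filter, -0.27 by share of UMIs, -0.46 without doublet markers, -0.55 without the 3 other types, -0.24 in thinned cells and -0.56 and 0.76 by sex (female-called first). The G2/M median was 0.29 with 6 rule genes, 0.05 with 8, 0.13 by share of UMIs, 0.28 in thinned cells, 0.39 without the 3 other types, 1.21 without Matn1 and 0.06 and 1.24 for female-called and male-called cells. Listed genes above 1 numbered 52, or 30 by share of UMIs, and those below -1 numbered 37, or 61 in female-called cells. Over all genes measured in the chosen cells 9.98% were above 1 and 6.53% below -1. Fewer genes were measured in female-called cells (10966 against 12910 over all genes). These counts are given without the number of listed genes measured in each setting and are not read as a result about the lists. In male-called cells Smpd3 (0.19), Pth1r (1.08), Col10a1 (8.28), Ibsp (3.0), Panx3 (0.35), Gdf5 (-0.35), Spry4 (-0.34), Chrdl1 (0.28) and Phlda1 (-0.02) reversed. So did Gas1 (0.56), Abi3bp (0.89) and Itgbl1 (4.11) with all 8 rule genes, Epyc (0.85) and Col10a1 (5.15) without Matn1, Ibsp by share of UMIs (0.33), Gdf5 in thinned cells (-0.27) and Adam8 with the stricter filter (-0.04). The cause was not tested. Depth limits genes with few UMIs, such as Etv4, Gdf5 and Spry1.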
